A study of Mus musculus with 14 samples.

Results

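Interferon-inducible GTPases of the immunity-related GTPase (IRG) and guanylate-binding protein (GBP) families were examined in Foxp3+ regulatory T cells (Tregs), the CD4+ lymphocytes that restrain other immune cells. The set was chosen by name: Irgm1, Irgm2, Igtp, Iigp1, Ifi47, Tgtp1, Gbp2, Gbp3 and Gbp7, 9 genes in all. The choice was made on measured values, because Irgm2 was known to be higher in arrays labelled Atg14 knockout (KO) in both Treg subsets. A row of the array matrix carried the symbol of 8 of the 9 genes, out of 22203 transcript clusters (the probes that read 1 gene) with a gene symbol. No row carried Tgtp1 as its symbol, so its level is not analysed here. No filter on signal was used, so all 8 measured genes entered every comparison.

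The cells came from mixed bone marrow chimeras on 14 Clariom S mouse arrays. CD45.2+ marrow from Foxp3-Cre Atg14 +/fl donors (the control, labelled heterozygous) or Foxp3-Cre Atg14 fl/fl donors (labelled KO) was mixed in equal parts with CD45.1+ wild-type marrow and given to sublethally irradiated Rag1-/- hosts, which lack mature T and B cells of their own. The marrow reconstituted for 6 to 8 weeks. Both genotypes thus carry the Cre, which is made with YFP from the Foxp3 locus and acts in Foxp3+ cells, and both carry at least 1 floxed Atg14 allele. Central Tregs (cTregs, CD44low CD62Lhigh) and effector Tregs (eTregs, CD44high CD62Llow) were sorted by YFP, and each subset gave 4 control arrays and 3 arrays labelled KO. The labels do not give the age of the mice, and name spleen and peripheral lymph nodes where the methods name spleen. The study's legends give 4 control and 3 KO chimeras as the source of the cells, which equals the arrays of each subset, so arrays of a group were read as separate animals. On that reading both subsets came from the same animals, and the main tests between subsets do not use this. Whether a cTreg and an eTreg array of the same number came from 1 animal is not stated. A log2 signal is comparable for a gene between arrays, not between genes.

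IRG and GBP proteins are dynamin-like GTPases that interferon-gamma induces in many cell types, in part through the transcription factor IRF1. They gather on the vacuoles that enclose intracellular parasites and bacteria and help to disrupt them. IRGM proteins (Irgm1, Irgm2 and Igtp, also called Irgm3) keep the effector IRGs inactive on the cell's own membranes, while effector IRGs (Iigp1, also called Irga6, Ifi47, also called Irgd, and the Tgtp proteins, also called Irgb6) and GBPs load onto the vacuole. Part of the autophagy machinery, the conjugation of ATG8 proteins to lipid, is known to direct this loading, and Irgm1 is known for a role in the survival of activated T cells. Atg14 is a subunit of the Vps34 lipid kinase complex that starts autophagosome formation.

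The short stretches upstream of the start sites are shown first because interferons act on such genes through DNA motifs near the start, an interferon-stimulated response element (searched as GAAANNGAAA) and a gamma-activated site (searched as TTCNNNGAA), both on either strand. RefSeq promoter windows of the GRCm38.p6 build, each from 250 bases before to 50 bases after a start, were found for 8 of the 9 genes. Capitals mark the matches, and 12 bases flank them on each side.
Irgm2, chr11:58214890-58214934, + strand: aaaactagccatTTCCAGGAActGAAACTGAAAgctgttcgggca
Igtp, chr11:58199499-58199543, + strand: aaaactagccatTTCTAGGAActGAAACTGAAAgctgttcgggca
Tgtp1, chr11:48992302-48992346, - strand: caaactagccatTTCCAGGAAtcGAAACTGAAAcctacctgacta
Irgm1, chr11:48871423-48871462, - strand: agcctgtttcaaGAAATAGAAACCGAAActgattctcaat
Gbp2, chr3:142620592-142620625, + strand: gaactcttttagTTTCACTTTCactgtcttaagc
Gbp3, chr3:142559987-142560026, + strand: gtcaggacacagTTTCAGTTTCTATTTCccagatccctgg
Gbp7, chr3:142530218-142530304, + strand: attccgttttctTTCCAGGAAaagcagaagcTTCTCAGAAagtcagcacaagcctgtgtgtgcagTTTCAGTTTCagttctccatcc

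The response element was found in 7 of the 8 genes with a window, and in 3.99% of all 27025 genes with a window. The gamma-activated site was found in 4 of the 8 genes, against 9.55% of all genes. The response elements of the 3 GBP genes lie on the opposite strand, and those of Irgm1 and Gbp3 are pairs that overlap. In Irgm2, Igtp and Tgtp1 the gamma-activated site precedes the response element by 2 bases. That arrangement was found in 5 windows of all 32851 (0.0152%), and the other 2 belong to Tgtp2 and Gm12185, which are IRG genes as well. These genes are related by descent, and the stretches of Irgm2 and Igtp, which are neighbours on chromosome 11, share 44 of 45 bases, so the windows are not independent. Neither motif was found in the window of Ifi47 or in a second window of Gbp3. A match describes the letters in these windows, and binding was not measured.

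Libraries were compared before the genes. Array medians lay between 8.77 and 8.90 and background probe medians between 6.00 and 6.30 on the log2 scale. Of 5 T cell and Treg markers, Foxp3, Cd4 and Cd3e read 12.46 to 13.25 and Ikzf2 11.49 to 12.51 on all arrays, whereas Il2ra, which encodes CD25, read 6.94 to 8.44, below the array medians. The mean of 4 eTreg markers was 9.99 to 11.26 in eTregs against 8.58 to 8.88 in cTregs, lowest among eTregs in KO eTreg 1. Atg14 itself was not lower in arrays labelled KO (differences of 0.35 in cTregs and 0.32 in eTregs), so the groups are called by their labels throughout. The paper reports that Atg14 deletion was verified by quantitative PCR in Tregs sorted from Foxp3-Cre Atg14 fl/fl mice, which were not these chimeras. Which exons the array probes read was not analysed, so the array signal does not show whether the deletion took place. The mean of 8 monocyte and macrophage markers was 10.89 in KO eTreg 2 and 10.88 in KO eTreg 3, against 8.75 in KO eTreg 1 and 8.96 to 9.38 in control eTregs, with all 8 markers highest in KO eTreg 2 and 3. In cTregs that mean was 7.90 to 8.23 in controls and 8.19 to 8.43 in arrays labelled KO. The mean of 6 dendritic cell markers was 8.42 and 8.69 in KO eTreg 2 and 3, against 7.81 in KO eTreg 1 and 7.74 to 7.87 in control eTregs. Not all 6 moved alike. On those 2 arrays Itgax (9.03 and 9.46) and Xcr1 (7.78 and 8.49) lay above all control eTregs. Zbtb46 (9.22 and 9.12) stayed within the control eTreg range, Flt3 (6.91 and 7.58) lay on either side of it, and Clec9a (6.81 and 6.82) was little above the highest control eTreg, 6.76. Siglech, a plasmacytoid dendritic cell marker of the list, was high on all 3 eTreg arrays labelled KO (9.78, 10.79 and 10.65, against 8.37 to 8.86 in controls). The mean of 7 CD8 T and NK cell markers was 9.25 and 9.31 in KO eTreg 2 and 3, 8.68 in KO eTreg 1, 8.51 to 8.91 in control eTregs and 8.11 to 8.55 in cTregs. Of 5 neutrophil markers, S100a8, Ly6g and Retnlg had group means at background, and S100a9 and Csf3r had group means of 7.82 to 8.10 and 8.48 to 8.85. In sorted bulk samples fewer cells of a type and less RNA per cell cannot be told apart.

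Genotype labels were compared in each subset to ask how the GTPase genes stood in Tregs of both labels. The mean log2 signal was higher with the KO label for 8 of 8 measured genes in eTregs and for 8 of 8 in cTregs. Of all transcript clusters 44.2% had a higher mean with the KO label in eTregs and 54.8% in cTregs. The median difference was 0.19 in eTregs, against -0.02 over all clusters, and 0.38 in cTregs, against 0.02. Because these values chose the set, they are given as a description with no test, and nothing is read from the counts. Every array labelled KO lay above every control array for 2 of 8 genes in eTregs (3.01% of all clusters) and for 3 of 8 in cTregs (2.7% of all clusters). A difference of at least 0.5 was met by 1 gene in each subset, Irgm2 (2.24% of all clusters in eTregs and 0.261% in cTregs).

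**Figure D1:**
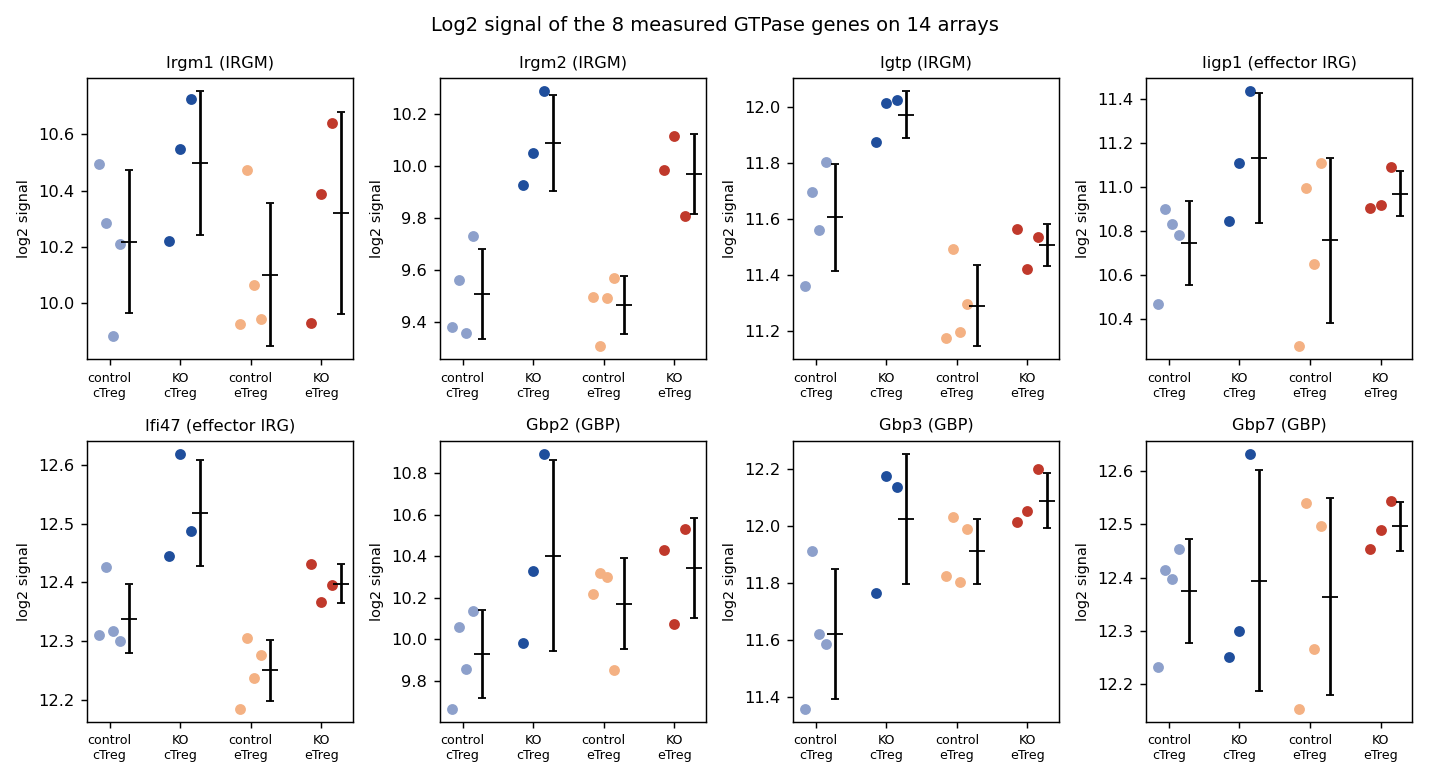
Log2 signal (y axis, a separate range for each gene) of the 8 measured GTPase genes in the 4 groups, with 1 point per array and the mean ± SD in black (n = 4 for controls, n = 3 for groups labelled KO). Irgm2 points labelled KO lie at 9.81 or above and control points at 9.73 or below, whereas Irgm1, Iigp1, Gbp2, Gbp3 and Gbp7 overlap between labels in both subsets.

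Irgm2 (TC1100004266.mm.2), an IRGM protein known to act on GBPs and the noncanonical inflammasome, showed the widest gap. In cTregs it read 9.38, 9.56, 9.36 and 9.73 in controls and 9.93, 10.05 and 10.29 in arrays labelled KO. In eTregs it read 9.50, 9.30, 9.49 and 9.57 in controls and 9.99, 10.12 and 9.81 in arrays labelled KO. All 6 arrays labelled KO lay above all 8 control arrays. The group means were 10.09 ± 0.18 (SD, n = 3) in cTregs labelled KO, 9.97 ± 0.16 (SD, n = 3) in eTregs labelled KO, 9.51 ± 0.18 (SD, n = 4) in control cTregs and 9.46 ± 0.11 (SD, n = 4) in control eTregs. Within each label the subset means differed by less than these SDs. The difference between labels was 0.58 in cTregs (1.50-fold) and 0.51 in eTregs (1.42-fold). It stood above those of 99.8% of clusters in cTregs and 97.8% in eTregs. Since this difference was known when the set was chosen, its rank is a description only. In KO eTreg 1, where the mean of the macrophage markers was below that of every control eTreg array but Siglech was above, Irgm2 was 9.99, and without KO eTreg 2 and 3 the eTreg difference was 0.52.

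Igtp (TC1100004265.mm.2), the neighbour of Irgm2, followed the same order in cTregs. It read 11.36, 11.70, 11.56 and 11.80 in control cTregs and 11.88, 12.02 and 12.03 in cTregs labelled KO, with no overlap and a difference of 0.37 (1.29-fold). In eTregs the values were 11.18, 11.49, 11.19 and 11.30 in controls and 11.56, 11.42 and 11.54 with the KO label. There KO eTreg 2 lay below control eTreg 2, and the difference was 0.22. Irgm1 (TC1100002641.mm.2), the IRGM member linked to mitochondria and lysosomes, overlapped in both subsets. Its cTreg values were 10.49, 10.29, 9.88 and 10.21 in controls and 10.22, 10.55 and 10.72 with the KO label, a difference of 0.28. Its eTreg values were 9.93, 10.47, 10.07 and 9.94 in controls and 9.93, 10.39 and 10.64 with the KO label, a difference of 0.22. With the KO label the 2 higher eTreg values were those of KO eTreg 2 and 3, which also carried the high macrophage markers. Control eTreg 2, at 10.47, lay above KO eTreg 2. With these arrays left out, an alternative chosen after seeing the data, the Irgm1 difference was -0.17. The part of the macrophage markers in this difference was not tested.

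Among effector IRGs, Ifi47 (TC1100000496.mm.2) varied little within a group (SD 0.033 to 0.090). Its cTreg values were 12.31, 12.43, 12.32 and 12.30 in controls and 12.45, 12.62 and 12.49 with the KO label. Its eTreg values were 12.19, 12.30, 12.24 and 12.28 in controls and 12.43, 12.37 and 12.40 with the KO label. Labels did not overlap in either subset, though the differences were small, 0.18 in cTregs and 0.15 in eTregs. Iigp1 (TC1800000610.mm.2), a GTPase that coats parasite vacuoles, read 10.47, 10.90, 10.83 and 10.78 in control cTregs and 10.85, 11.11 and 11.44 in cTregs labelled KO. In eTregs Iigp1 spread from 10.28 to 11.11 in controls, and all 3 values labelled KO (10.91, 10.92 and 11.09) fell inside that range. Its differences were 0.39 in cTregs and 0.21 in eTregs.

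GBP genes overlapped between labels in both subsets. Gbp2 (TC0300001447.mm.2), which loads onto pathogen vacuoles, read 9.66, 10.06, 9.86 and 10.14 in control cTregs and 9.98, 10.33 and 10.89 in cTregs labelled KO, a difference of 0.47 that was carried mainly by KO cTreg 3. Its eTreg values were 10.22, 10.32, 10.30 and 9.85 in controls and 10.43, 10.07 and 10.53 with the KO label, a difference of 0.17. Gbp3 (TC0300001446.mm.2) read 11.36 to 11.91 in control cTregs and 11.76, 12.18 and 12.14 with the KO label, a difference of 0.41. In eTregs Gbp3 read 11.80 to 12.03 in controls and 12.01 to 12.20 with the KO label, a difference of 0.18, and KO eTreg 1 alone lay within the control range. Gbp7 (TC0300001445.mm.2) differed by 0.02 in cTregs and 0.13 in eTregs, and 2 of its 3 cTreg values labelled KO (12.25 and 12.30) lay within the control range of 12.23 to 12.45.

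**Figure D2:**
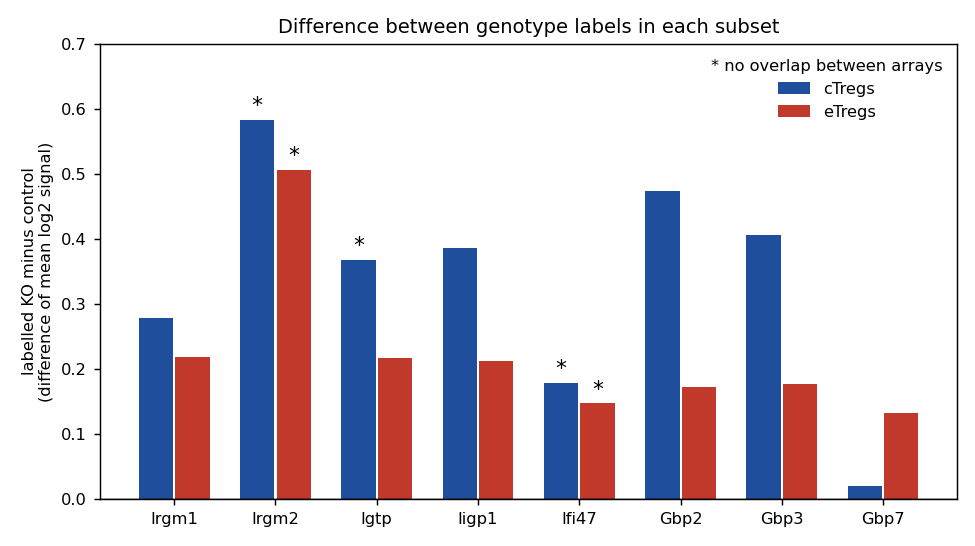
Difference of mean log2 signal, labelled KO minus control (y axis), for each measured GTPase gene in cTregs (blue) and eTregs (red), with a star where no array labelled KO overlapped a control array. Irgm2 has the tallest bar in both subsets, 0.58 and 0.51, and Gbp7 in cTregs the shortest, 0.02; the array values behind each bar are in the plot by array.

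KO cTreg 3 lay above its group's mean for 7 of 8 genes, and KO cTreg 1 for 0 of 8. Without KO cTreg 3 the cTreg differences of Gbp2, Iigp1 and Irgm1 were 0.23, 0.23 and 0.17, and that of Gbp7 turned to -0.10, while that of Irgm2 was 0.48. Without control cTreg 1 that of Gbp7 was -0.03. In eTregs the difference of Irgm1 was 0.06 without KO eTreg 3, those of Iigp1 and Gbp7 were 0.05 and 0.06 without control eTreg 1, and that of Gbp2 was 0.07 without control eTreg 4. KO cTreg 3 also had the lowest mean of 5 erythroid markers, 8.00, against 8.75 to 9.46 on the other cTreg arrays, and the part of this in the GTPase values was not tested.

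The difference between labels in eTregs minus that in cTregs ranged from -0.30 for Gbp2 to 0.11 for Gbp7. It was below 0 for 7 of 8 genes, with -0.08 for Irgm2. These differences come from the contrasts that chose the set and are not tested.

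The other genes of the families were described in the same way. Over all clusters 44.2% had a higher mean with the KO label in eTregs and 54.8% in cTregs. Every array labelled KO lay above every control array for 3.01% of all clusters in eTregs and 2.7% in cTregs. Of 11 other IRG genes with a row, the mean was higher with the KO label for 10 in eTregs and 9 in cTregs, with medians of 0.11 and 0.15. Gm12185, from the chromosome 11 cluster that holds Irgm1, showed no overlap in either subset, with differences of 0.34 and 0.27. Tgtp2, a near-identical paralog of Tgtp1, read 11.34 to 11.56 in control eTregs and 11.65 to 11.70 in eTregs labelled KO, a difference of 0.24. In cTregs its labels overlapped, at 11.65 to 11.82 in controls and 11.78 to 12.38 with the KO label. Reads of the 2 paralogs may be shared by the Tgtp2 probes, so its value is uncertain. Of 6 other GBP genes the mean was higher for 6 in eTregs and 5 in cTregs, with medians of 0.08 in both. Of 14 interferon-gamma signalling genes the mean was higher with the KO label for 8 in each subset, near the share over all clusters in cTregs, and nothing is read from that count. Within that list Ciita, the activator of MHC class II genes, lay above all controls in both subsets, by 0.49 in eTregs and 0.25 in cTregs. Its eTreg values labelled KO were 9.06, 9.48 and 9.59, the last 2 on the arrays with high macrophage markers and some high dendritic cell markers, and KO eTreg 1 lay 0.17 above the control mean.

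eTregs were compared with cTregs to ask whether the GTPase genes followed effector differentiation. This contrast was not used to choose the genes, though it draws on the same arrays, and calls asked for a limma adjusted P below 0.05 over all 22203 clusters and a change of at least 0.5 on the log2 scale. No measured GTPase gene met this in controls, in arrays labelled KO or averaged over genotypes (0 of 8 each, limma). At an unadjusted P below 0.05 there were 2, 1 and 1 genes. In the average 17.3% of all clusters reached that unadjusted level. Over all clusters, 2.14% were called higher in eTregs in controls and 0.919% lower. With the KO label these shares were 2.02% and 0.329%, and in the average they were 3.26% and 0.775%.

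Igtp was the exception at smaller size. It was lower in eTregs by 0.39 on average over genotypes (1.31-fold, 95% confidence interval of the log2 difference -0.57 to -0.21, limma adjusted P = 0.0081), which passed the adjusted P but not the 0.5 threshold. Clusters lower in eTregs at that adjusted P, without regard to size, were 2.05% of all. The differences were -0.32 among controls (adjusted P = 0.17) and -0.47 with the KO label (adjusted P = 0.068), where eTregs and cTregs did not overlap. With KO eTreg 2 and 3 left out the averaged difference was -0.36 and its adjusted P was 0.10. The interval of the averaged difference was -0.27 to 0.11 for Irgm2, -0.43 to 0.14 for Irgm1, -0.35 to 0.20 for Iigp1, -0.24 to 0.03 for Ifi47, -0.20 to 0.38 for Gbp2, -0.03 to 0.38 for Gbp3 and -0.14 to 0.23 for Gbp7. Every one of these intervals includes 0. Macrophage markers were also higher in eTregs than in cTregs, with 6 of 8 called in the average, 5 in arrays labelled KO and 1 in controls. Their part in these values was not tested.

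**Figure D3:**
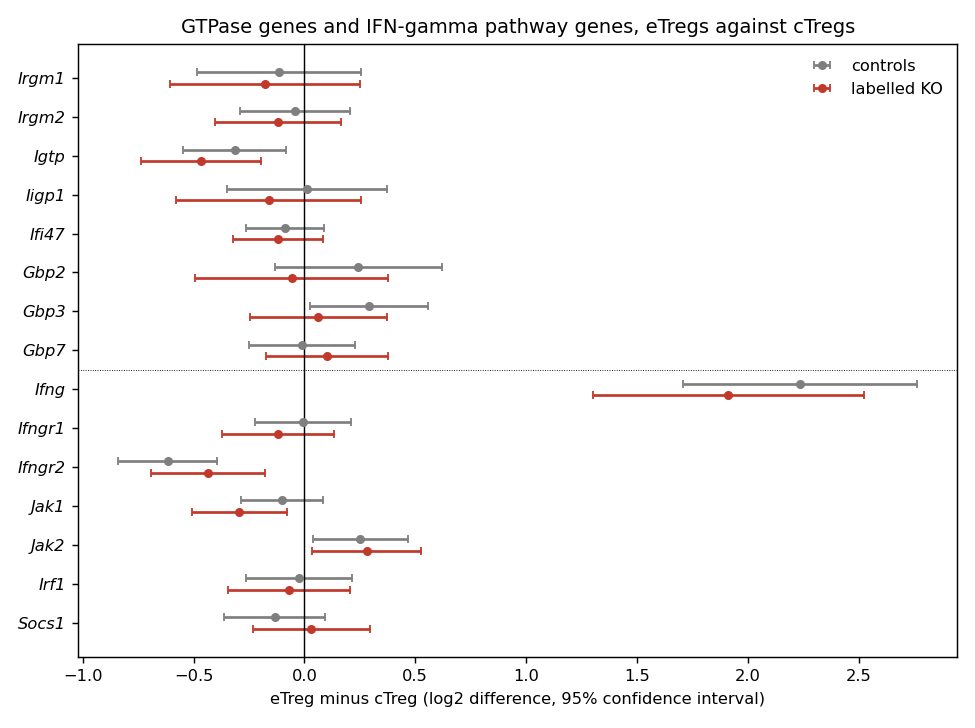
eTreg minus cTreg log2 difference (x axis) with its 95% confidence interval for the 8 measured GTPase genes, above the dotted line, and 7 interferon-gamma pathway genes, below it, in controls (grey) and arrays labelled KO (red). Ifng stands at 2.24 and 1.91, while 6 of 8 GTPase genes have an interval that includes 0 in controls and 7 of 8 in arrays labelled KO.

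Ifng, the gene for the ligand interferon-gamma, read 7.03 to 7.57 in control cTregs and 9.09 to 9.87 in control eTregs. It rose by 2.24 in controls (4.71-fold, limma adjusted P = 6.2e-05) and by 1.91 in arrays labelled KO (3.76-fold, limma adjusted P = 0.0018). All eTreg arrays lay above all cTreg arrays, and the lowest eTreg value, 8.61, was that of KO eTreg 1. With KO eTreg 2 and 3 left out, the rise in arrays labelled KO was 1.12, and that in controls was still called. The value of 1.12 rests on KO eTreg 1 alone, the eTreg array with the lowest mean of the eTreg markers, so no call is read from it. Of the 7 CD8 T and NK cell markers, 2 were also called higher in control eTregs than in control cTregs, Klrb1c, from a background mean of 5.87 to 8.06 (limma adjusted P = 0.0089), and Nkg7, from 10.20 to 11.63 (limma adjusted P = 0.0016). In the same contrast 1 of the 7 was called lower, Cd8b1, from 10.38 to 9.76. Cd8a, Gzma, Ncr1 and Eomes were called in neither direction, and the NK cell gene Ncr1 read 6.60 in control cTregs and 6.56 in control eTregs. NK cells are a known source of Ifng, and the part of these markers in its rise was not tested. Of the receptor chains, Ifngr2 fell by 0.62 in controls (limma adjusted P = 0.0024) and by 0.53 on average (limma adjusted P = 0.00055), and was 0.44 lower in arrays labelled KO (adjusted P = 0.076). The averaged change of Ifngr2 was 0.46 without KO cTreg 2 and 0.50 without control eTreg 1, below the 0.5 threshold. Ifngr1 differed by -0.01 in controls (adjusted P = 0.99) and -0.12 with the KO label (adjusted P = 0.72).

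Downstream of the receptor, Jak1 differed by -0.20 on average (limma adjusted P = 0.10), and Jak2 was 0.27 higher in eTregs (limma adjusted P = 0.048), below the size threshold. Irf1 and Socs1, both of them targets as well as members of the pathway, each differed on average by -0.05, with adjusted P values of 0.87 and 0.84. Their intervals lay within -0.23 and 0.14. In all, 1 of 14 signalling genes was called higher (Ifng) and 1 lower (Ifngr2) in the average, and the median over the list was -0.05, against -0.03 over all clusters.

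None of the 11 other IRG genes or 6 other GBP genes was called in any of the 3 subset contrasts by limma. Singled out after their values were seen, Gbp2b was 0.38 higher in eTregs on average (limma adjusted P = 0.0026), and Gm12185 and Tgtp2 were 0.37 and 0.32 lower (adjusted P = 0.020 and 0.039), all below the size threshold. Igtp, Gm12185 and Tgtp2, which were lower in eTregs, share the spacing of motifs described above, and so does Irgm2, whose averaged difference was -0.08 (adjusted P = 0.74). These genes are related by descent, and a link between the motifs and the subset differences was not tested.

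Genes with which GBPs act were examined next. Of 6 inflammasome partners, 2 were called higher in eTregs in controls and 3 in arrays labelled KO. Gsdmd and Pycard differed by -0.07 and 0.03 in controls, with adjusted P values of 0.86 and 0.96. Casp1, the inflammatory caspase that processes interleukin-1 beta, rose by 1.15 in controls (2.22-fold, limma adjusted P = 0.00064) and by 1.23 with the KO label (limma adjusted P = 0.0025). Casp4, the caspase that senses cytosolic lipopolysaccharide, rose by 1.08 (limma adjusted P = 0.00079) and 1.09 (limma adjusted P = 0.0044). Nlrp3, an inflammasome sensor, was called in arrays labelled KO (limma adjusted P = 0.037), with 6.24, 7.76 and 8.02 in eTregs against 5.82 to 6.33 in cTregs, which is at background, so no size is given. These 3 genes are also expressed by macrophages. Without KO eTreg 2 and 3 the difference in arrays labelled KO was 0.79 for Casp1 and 0.82 for Casp4. Those values rest on 1 eTreg array, KO eTreg 1, which also had the lowest mean of the eTreg markers among eTregs, 9.99. No call is read from that setting, and the part of macrophages in these genes was not tested. In controls the calls of Casp1 and Casp4 held under all 21 alternatives. Nlrp3 lost its call under 12 of 21 alternatives, 8 of which leave out 1 array (any KO cTreg array, KO eTreg 2 or 3, control cTreg 2, and control eTreg 3 or 4), and one of which is the replicate block (adjusted P = 0.073). Of 18 genes of ATG8 lipidation and vacuole tagging, 1 was called, Gabarapl1, an ATG8 family member, which rose by 0.97 in controls (limma adjusted P = 0.046) and by 0.84 on average (limma adjusted P = 0.014). The control call of Gabarapl1 was lost without any 1 of 10 arrays (every cTreg array and control eTreg 2, 3 and 4), with an adjusted P of up to 0.14, and its averaged difference was 0.37 without KO eTreg 2 and 3 (adjusted P = 0.26).

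Variation of the GTPase genes across arrays was then described. Over 14 arrays the 28 pairs of measured genes correlated with a median Pearson r of 0.52 (0.25 to 0.84). After each group's mean was subtracted the median was 0.36, and 26 of 28 pairs were above 0. The highest pair within groups was Iigp1 with Gbp7 (r = 0.93). The pairs below 0 were Irgm2 with Ifi47 (r = -0.07) and Irgm2 with Irgm1 (r = -0.05), both of which hold Irgm2. Genes on 1 array share its RNA and normalisation, and no P value is given.

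**Figure D4:**
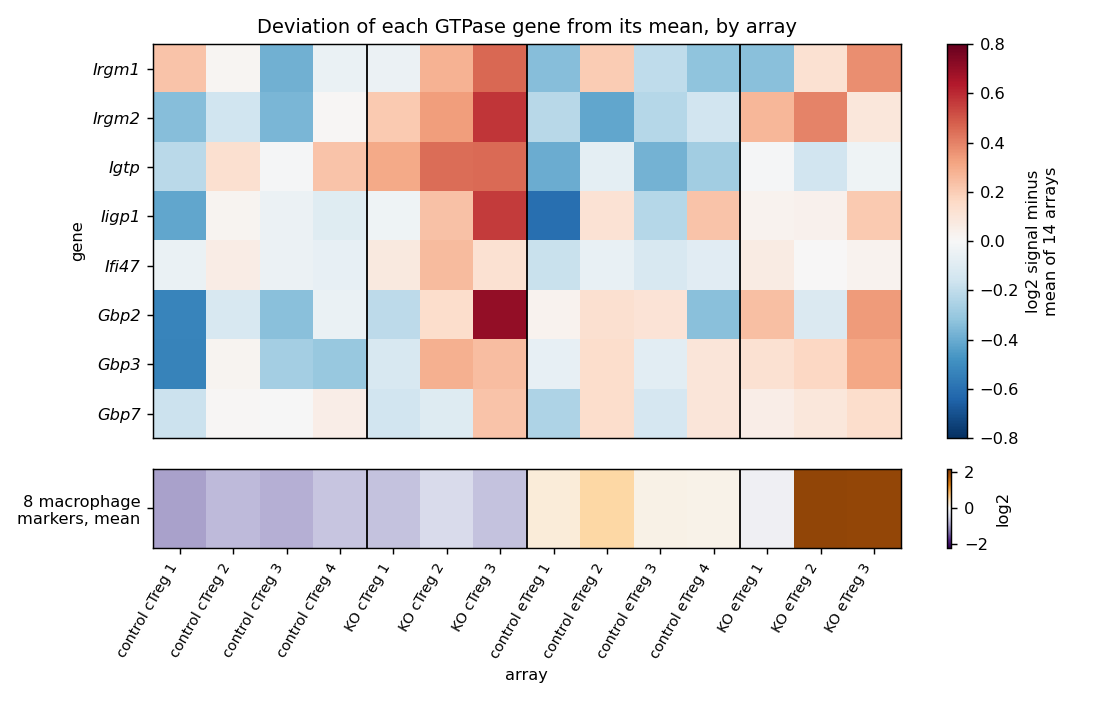
Upper panel, log2 signal of each GTPase gene minus its mean over 14 arrays (colour), with arrays in columns and vertical lines between the 4 groups; lower panel, the mean of 8 macrophage markers, centred the same way. KO cTreg 3 is high for most genes, Irgm2 is high on all 6 arrays labelled KO, and the macrophage markers are high in KO eTreg 2 and 3, with means of 10.89 and 10.88.

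Transcript clusters most like Irgm2 over the 14 arrays were C130026I21Rik (r = 0.92), Masp2 (0.87), H2-M3 (0.87), Slfn8 (0.87) and Dok2 (0.84). Each had a higher mean with the KO label in both subsets, a direction that likeness to Irgm2 largely fixes, by 0.20 to 2.19 in eTregs and by 0.28 to 2.46 in cTregs, the widest being Slfn8, a Schlafen family gene. Those most like the mean of the other 7 measured genes were Tapbp (r = 0.86), which encodes the peptide-loading protein tapasin, Ly6a (0.85), which encodes Sca-1, Chchd5 (0.83), Rtp4 (0.82) and Gm13251 (0.81). The 2 sets of 5 had no gene in common. These correlations are a description over arrays that differ in label and subset.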

How the data were processed

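Gene expression of 14 sorted Treg samples was measured on Clariom S mouse arrays. The authors summarised probes by robust multi-array average (RMA, Affymetrix Expression Console 1.1), so deposited values are log2 signals, background-corrected and quantile-normalised over arrays. No column of another series was present (0). Of 28846 rows, 6643 without a gene symbol (controls or unnamed) were left out; where 1 row listed several symbols the first was used. A mean for each of the 4 groups was fitted per cluster with limma 3.58.1 (R 4.3.3; lmFit, eBayes), with two-sided P values adjusted by Benjamini-Hochberg over all 22203 clusters. The fit was tested on simulated data. The genes and lists were chosen with earlier results of these data known. Named were all members, 8 interferon-gamma pathway genes (1 is counted but not reported here), up to 4 called genes per list and the 5 clusters most like Irgm2 or the other members. Groups came from the labels. Alternatives are in the closing section. Scans were not used here. The number of arrays limits precision.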

Additional observations from a re-analysis of the deposited data

Results flagged for a closer look

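Ifi47 in control cTreg 2, at 12.43, stood apart from the other 3 control cTreg arrays, which read 12.30 to 12.32. Its gap to the nearest array was 0.86 of the group's range. It was 1 of 32 gene and control group pairs examined in this way, and chance marks about 1 in 20 such groups. It is also the control value that comes nearest to the lowest cTreg value labelled KO, 12.45.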

How the results depend on the processing

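The number of GTPase genes called between subsets was 0 under every alternative that could be fitted, with a replicate block (7 pairs for subsets, number as block for genotypes) included, and 0 to 0 with 1 array left out. The Irgm2 difference was 0.56 in eTregs and 0.64 in cTregs with the block. When 1 array was left out it was 0.43 to 0.59 in eTregs and 0.48 to 0.66 in cTregs. No setting turned its direction, but leaving out arrays could not, since every array labelled KO lay above every control array. That direction also chose the set. The numbers of genes with a higher mean with the KO label were 8 and 8 with the block, and 8 to 8 in eTregs and 7 to 8 in cTregs with 1 array left out. Reversed were Irgm1 in eTregs without KO eTreg 2 and 3 (-0.17) and Gbp7 in cTregs without control cTreg 1 (-0.03) or KO cTreg 3 (-0.10 to 0.092 over all arrays left out), each with fewer arrays. The averaged Igtp difference was -0.36 without KO eTreg 2 and 3, where its adjusted P was 0.10 and 1 KO eTreg array was assumed to vary like the other groups. With 1 array left out it was -0.43 to -0.36, and its adjusted P over all alternatives was 0.0023 to 0.10. Equal replicate numbers deviated together with r of 0.04 to 0.30, above 0.1 in 5 of 7 pairs, against 1 of 18 for unequal numbers (-0.31 to 0.12), and 12 of 14 arrays correlated best with their own number. This hints at pairs, but not every pair passed 0.1 and the labels state no pairing, so the block stayed an alternative. The block gave an adjusted P of 0.0079 for averaged Igtp and of 0.045 for Igtp in arrays labelled KO, where the unblocked value was 0.068. The call of Ifng in arrays labelled KO was lost only without KO eTreg 2 and 3 among 21 alternatives, and those of Casp1 and Casp4 there also with only these groups in the fit (adjusted P of 0.060 and 0.089). Without KO eTreg 2 and 3 only 1 KO eTreg array is left, so nothing is read from a call lost in that setting. Taking the mean of all rows of a symbol could not change a value, since each measured gene has 1 row. Leaving out KO eTreg 2 and 3 and the rule on adjusted P alone were added after seeing the data.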

Other observations

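The median averaged difference between subsets was 0.0024 for type I interferon signalling genes and -0.02 for other interferon-stimulated genes, against -0.03 over all clusters. Of 11 type I interferon signalling genes with a row, Usp18, a protease that removes ISG15 and dampens the type I interferon receptor, was lower in eTregs by 0.82 in controls (limma adjusted P = 0.0060) and was called in the average under all 20 alternatives. It was also called lower in arrays labelled KO, and that call was lost under 12 of 21 alternatives. Of 32 other interferon-stimulated genes, 2 were called in the average, both lower in eTregs: Oas2, at -0.63 (adjusted P = 0.034), and Oasl1, at -0.54 (adjusted P = 0.042), which belong to the oligoadenylate synthetase family. The call of Oas2 was lost under 10 of 20 alternatives and that of Oasl1 under 11 of 20, most of them with 1 array left out (adjusted P up to 0.10 and 0.27, both without KO eTreg 2 and 3). Of all clusters 44.2% had a higher mean with the KO label in eTregs and 54.8% in cTregs. With the KO label 25 of the 32 had a higher mean in eTregs and 24 in cTregs, with medians of 0.20 and 0.14, given as a description. Every array labelled KO lay above every control array for 7 of the 32 in eTregs (3.01% of all clusters) and for 4 in cTregs (2.7% of all clusters). Among these Ifi44, Cmpk2 and Samhd1 lay above all controls in both subsets, by 0.62, 0.41 and 0.20 in eTregs and by 0.40, 0.34 and 0.19 in cTregs. Cmpk2 cleared the controls narrowly, with its lowest value labelled KO at 9.34 in eTregs and 9.20 in cTregs, equal to the highest control to that rounding. In eTregs 2 of the 32 genes lay below all controls, Ifit2, by -0.51, and Rsad2, by -0.16. The share of all clusters that lay below all controls was not counted, so nothing is read from these 2.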
